A study of Rattus norvegicus with 18 samples.

Results

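Solute carriers (Slc-named genes) were examined in cells sorted from brains of 7-day-old male rats. The members are all genes named by probe sets with exactly 1 annotated symbol that begins with Slc, a family number, the letter a and a member number. Excluded were 8 genes that serve as cell type markers or belong to other gene groups, Slc1a2, Slc1a3, Slc2a1, Slc4a4, Slc17a6, Slc17a7, Slc32a1 and Slc40a1. This left 263 genes with 349 probe sets, and 215 of them, with 262 probe sets, passed a filter on low values and were tested among 11982 genes in all. The tested cells were O4+ cells, with 4 replicates, and they were set against A2B5+ cells, with 5 replicates. O4 is an antibody to sulfatide and related lipids of late progenitors and oligodendrocytes, and A2B5 is an antibody to gangliosides of glial progenitors and some neurons. Cells that the labels call single O4+ or single A2B5+ were obtained by flow cytometry, with 1 litter of 10 dissociated whole brains for each replicate, so each value is a mean over pooled animals. Strain, genotype and treatment are not given in the sources used here. Each population has 4 or 5 numbered samples on each of 2 types of array, here array A and array B. The array B samples carry O4 or A2B5 titles but name whole brain as their source, and they were grouped by title.

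Solute carriers move small molecules and ions across the plasma membrane and the membranes of organelles, most of them as cotransporters, exchangers or uniporters that need no direct hydrolysis of ATP. In oligodendrocytes, carriers bring in the precursors of myelin lipids, such as inositol, choline and galactose in its nucleotide-bound form, pass citrate out of mitochondria for lipid synthesis, and set cell volume and intracellular chloride and calcium. Astrocytes, endothelial cells, microglia and neurons each have carriers of their own, for example those that clear transmitters or feed amino acids across the blood-brain barrier.

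The deposited values are linear ratios in which a probe set's median over 9 arrays is 1, or below 1 for the remaining probe sets. A ratio of 2 on a probe set with median 1 is therefore 2 times that median, and ratios of different genes do not compare their levels. Of the cell type markers, 11 of 11 tested for myelin and oligodendrocytes were higher in O4+ cells and 4 of 5 for progenitors were lower, the other, Olig1, being higher. Lower in O4+ cells were also 8 of 11 astrocyte and radial glia markers, 11 of 12 microglia markers, 8 of 11 endothelial and mural markers, 6 of 10 neuron markers and 6 of 6 proliferation markers, with 0, 0, 0, 2 and 0 higher. Fewer cells of a type and less RNA per cell cannot be told apart in such pools.

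Solute carriers as a whole were called at shares close to those of all genes. At an adjusted p under 0.05 (limma, Benjamini-Hochberg over all genes) 62 of 215 members were higher in O4+ cells, or 28.8%, and 46 were lower, or 21.4%. Among all genes 28.8% were higher and 17.8% were lower. The members' median log2 difference, O4+ minus A2B5+, was 0.16, against 0.14 for all genes. Of the members, 24 rose and 26 fell at least 2-fold, which is 11.2% and 12.1% of members, against 10.0% and 10.8% of all genes. The values of O4+ and A2B5+ arrays did not overlap for 104 members, and for 41.1% of all genes. Among all genes 27.6% had every O4+ value above and 13.5% every O4+ value below the A2B5+ values.

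The smaller rises moved with the scale of array A. Its O4+ arrays had medians 0.17 above those of the A2B5+ arrays on the log2 scale, against 0.0024 on array B. Centring each array on its median left 46 members higher and 49 lower, with 18.7% and 20.4% of all genes, and moved the members' median to 0.0062. By array type, 31.2% of members from array A were higher and 21.4% lower, against 33.7% and 15.8% of all genes there, and 19.0% of members from array B were higher and 21.4% lower, against 13.5% and 23.9%. Of the 62 rises, 16 were lost on centring, all with a difference between 0.31 and 0.89. Probe sets of low ratio were shifted the same way: the member probe sets that failed the filter had a median difference of 0.31 on array A, where 100% of 58 were positive, and 0.046 on array B. Members whose ratios followed the median pattern of probe sets with medians below 1 closely, with a residual SD under 0.15 in both populations, numbered 30, and 9 of them were among the rises, at 0.31 to 0.55. Those 9 were Slc4a1, Slc6a7, Slc7a12, Slc8a2, Slc9a4, Slc14a1, Slc14a2, Slc30a9 and Slc33a1, and only Slc30a9 was still called after centring.

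**Figure D1:**
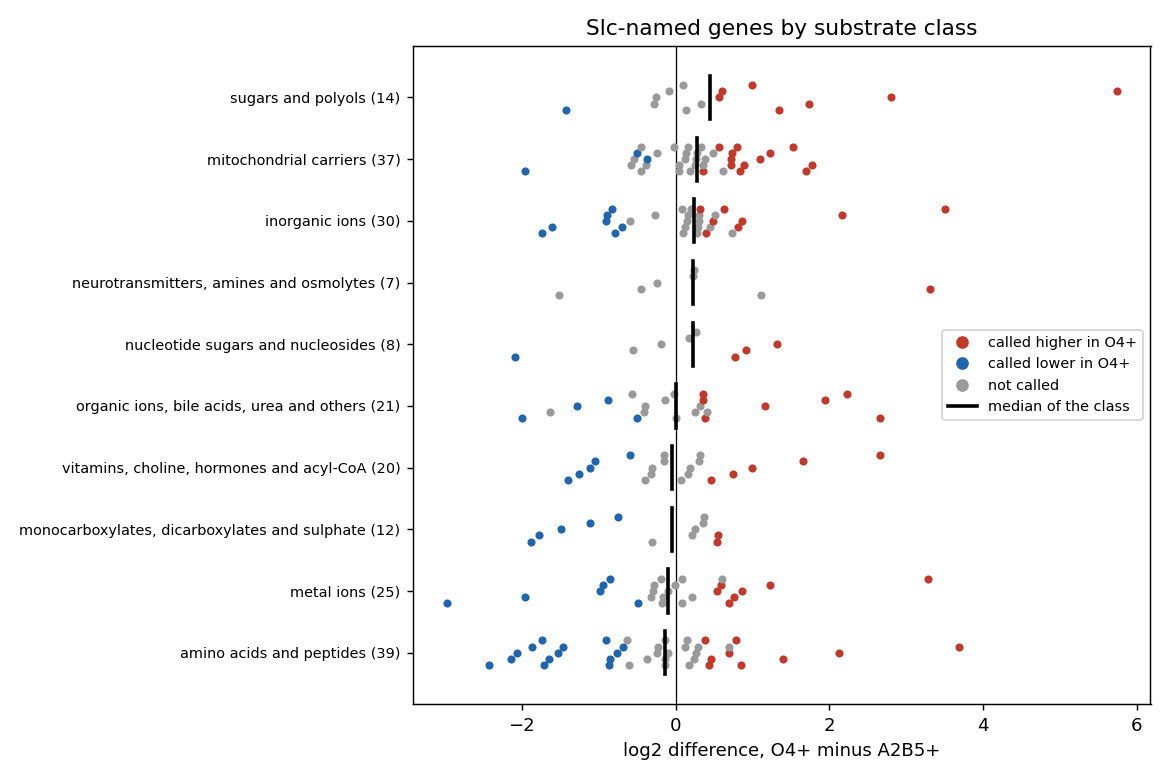
Each point is 1 of 213 tested solute carriers, placed by its log2 difference (O4+ minus A2B5+) and grouped by substrate class, with the number tested in brackets, coloured by its limma call, and with a black bar at the class median. The classes of sugars and polyols and of mitochondrial carriers have medians of 0.44 and 0.28, and that of amino acids and peptides has a median of -0.14, while single members reach 5.74 and -2.98.

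Substrate classes were assigned by family number, with single genes moved where their substrate is known to differ. Higher were 7 of 14 members in sugars and polyols and 35.1% of mitochondrial carriers, and lower were 35.9% of amino acid and peptide carriers and 41.7% of carriers of monocarboxylates, dicarboxylates and sulphate, beside 28.8% and 17.8% of all genes. These shares are descriptions and were not tested against other genes. Slc4a1ap and Slc7a6os carry a carrier's name without being transporters, and neither was called (differences of 0.33 and 0.38).

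Inositol and sugar carriers held the largest rise of all members. Of 14 tested genes for sugars and polyols 7 were higher and 1 was lower, or 50% and 7.14%, beside 28.8% and 17.8% of all genes. Slc5a11 encodes a sodium-coupled myo-inositol transporter of the plasma membrane. Slc5a11 had ratios of 30.7, 55.3, 46.2 and 45.5 in O4+ cells, against 0.773, 1.00, 0.729, 0.762 and 0.818 in A2B5+ cells. Every O4+ array lay more than 30-fold above the highest A2B5+ array, and the difference was 5.74 ± 0.18, or 53.5-fold (adjusted p = 5.0e-08). Slc2a13, a proton-coupled myo-inositol transporter, rose by 1.00 ± 0.23 over its 2 probe sets. Slc5a3, another sodium-coupled myo-inositol transporter, had ratios of 0.680, 1.03, 0.619 and 1.00 in O4+ cells, against 1.09, 1.01, 1.00, 0.992 and 0.856 in A2B5+ cells. Its arrays overlapped, and the difference of -0.28 ± 0.18 was not called (adjusted p = 0.208).

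Slc45a3 is a proton-coupled sugar carrier known from mouse oligodendrocytes. Slc45a3 had ratios of 5.58, 3.37, 2.71 and 5.51 in O4+ cells, against 0.533, 0.727, 0.396, 0.445 and 1.00 in A2B5+ cells. The populations did not overlap, and the difference was 2.81 ± 0.31. Its relative Slc45a1 rose by 1.34 ± 0.44 with overlapping arrays, and Slc45a4 was not called (0.33 ± 0.27). Slc2a6, a hexose carrier found on lysosomes, rose by 1.74 ± 0.26, and Slc37a4, which brings glucose 6-phosphate into the endoplasmic reticulum, by 0.60 ± 0.11. The neuronal glucose carrier Slc2a3 had a difference of 0.14 ± 0.11 (adjusted p = 0.326). The single fall was Slc2a5, a fructose carrier of microglia, at -1.43 ± 0.50 with overlap. Its 2 highest ratios in A2B5+ cells, 4.30 and 2.76, came from replicates 5 and 2, where microglia markers averaged 0.81 and 0.88 on the log2 scale, above the other A2B5+ arrays.

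**Figure D2:**
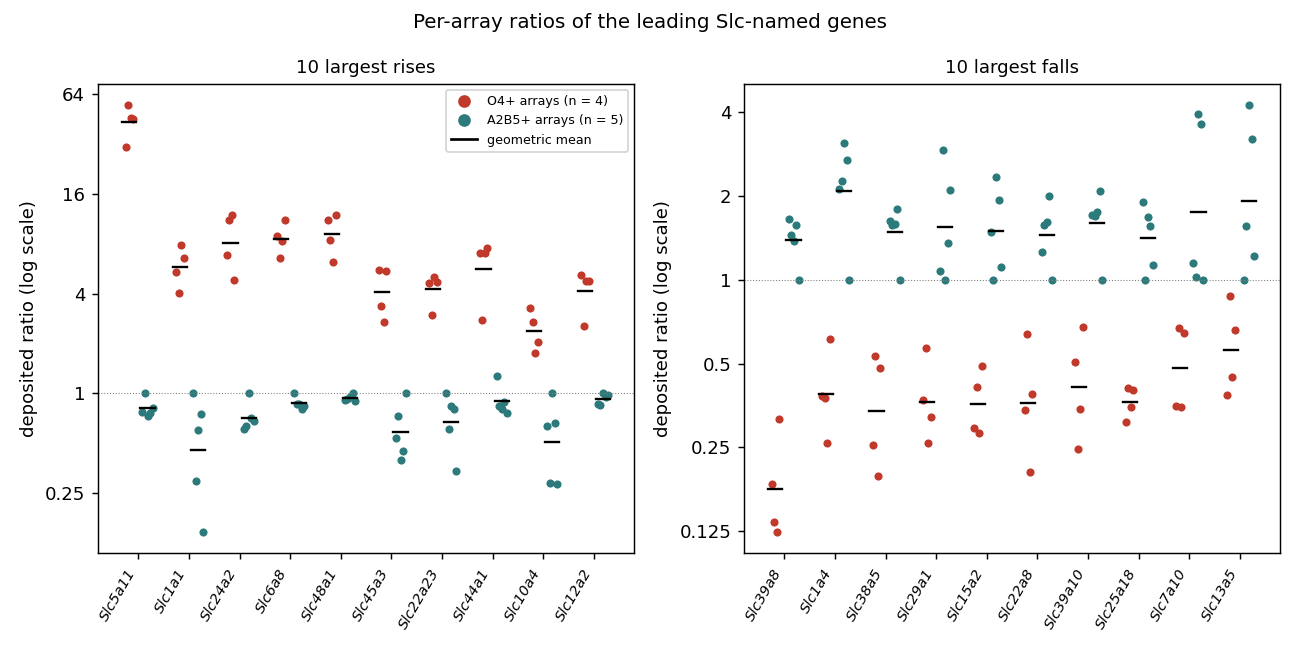
Deposited ratio of each array (log scale) for the 10 largest rises and the 10 largest falls among called members whose populations do not overlap, with O4+ arrays left of A2B5+ arrays and a bar at the geometric mean. Slc5a11 stands apart with O4+ ratios of 30.7 to 55.3, while the O4+ ratios of the other rises lie between 1.76 and 11.9.

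Amino acid and peptide carriers were the largest class and moved mainly downward. Of 39 tested, 14 were lower and 9 higher in O4+ cells, or 35.9% and 23.1%, beside 17.8% and 28.8% of all genes. With arrays centred 16 were lower and 5 higher, beside 20.4% and 18.7% of all genes. The cationic and large neutral amino acid carriers of family 7 had the most falls of any family, 6 of 10 tested, with 1 higher. These are 60% and 10%, and family 7 was singled out after the values were seen. On the plasma membrane Slc3a2, the heavy chain that several family 7 carriers need to reach the cell surface, and Slc7a5, its partner for leucine and other large neutral amino acids, fell together. Slc3a2 had ratios of 0.779, 0.688, 0.659 and 0.738 in O4+ cells, against 1.31, 1.17, 1.25, 1.34 and 1.00 in A2B5+ cells. Slc7a5 had ratios of 0.656, 0.499, 0.682 and 0.779 in O4+ cells, against 1.29, 1.35, 1.16, 1.00 and 1.09 in A2B5+ cells. For both genes all O4+ arrays lay below all A2B5+ arrays, and the differences were -0.76 ± 0.12 and -0.86 ± 0.15. Other light chains also fell: Slc7a8 by 1.47 ± 0.16, the carrier of basic amino acids Slc7a7 by 1.53 ± 0.31, and the glycine and D-serine carrier Slc7a10 by 1.87 ± 0.48. The light chain Slc7a6 was not called (-0.38 ± 0.20), although it was with arrays centred (adjusted p = 0.040). Slc7a1, the cationic amino acid carrier that works without a heavy chain, fell by 0.68 ± 0.15 as the mean of 2 probe sets, of which 1 was called (-0.86 ± 0.22) and the other had a difference of -0.50 ± 0.29.

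Slc7a11 is the light chain of the cystine-glutamate exchanger, which feeds glutathione synthesis. Slc7a11 had ratios of 0.466, 1.00, 0.474 and 0.526 in O4+ cells, against 2.75, 1.80, 2.50, 2.24 and 0.993 in A2B5+ cells. O4+ replicate 2 lay just above the lowest A2B5+ array, replicate 5, while the other O4+ arrays lay near 0.5, and the difference was -1.73 ± 0.33 (adjusted p = 0.00224).

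Neutral amino acid carriers of families 1 and 38 divided. Slc1a4 exchanges alanine, serine and cysteine, and exports L-serine from astrocytes. Slc1a4 had ratios of 0.381, 0.376, 0.258 and 0.611 in O4+ cells, against 2.11, 2.27, 3.10, 2.70 and 1.00 in A2B5+ cells. All O4+ arrays were lower, and the difference was -2.43 ± 0.34, the largest fall of the class. The glutamine exchanger Slc1a5, by contrast, was not called (-0.22 ± 0.16, adjusted p = 0.279). The glutamine carriers Slc38a3 and Slc38a5, which can also release glutamine, fell by 1.71 ± 0.47 and 2.14 ± 0.31, with overlap only for Slc38a3. The uptake carriers Slc38a1 and Slc38a2 had differences of -0.14 ± 0.16 and -0.10 ± 0.14 and were not called. The 3 probe sets of Slc38a1 disagreed, with differences of -0.61 ± 0.34, -0.22 ± 0.22 and 0.42 ± 0.13, and the last was called higher. Slc38a9, a lysosomal arginine sensor of the mTORC1 pathway, rose by 0.78 ± 0.23.

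Slc1a1 is a glutamate and cysteine carrier of neurons and oligodendrocytes. Slc1a1 had ratios of 5.43, 4.05, 7.84 and 6.58 in O4+ cells, against 1.00, 0.292, 0.598, 0.745 and 0.145 in A2B5+ cells. It gave the largest rise of the class, 3.68 ± 0.51, with each of its 2 probe sets called (3.35 ± 0.50 and 4.02 ± 0.52). The A2B5+ arrays themselves spread nearly 7-fold, from 0.145 in replicate 5 to 1.00 in replicate 1.

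Peptide carriers of family 15 moved in opposite directions. Slc15a4, a lysosomal carrier of histidine and peptides, rose by 2.12 ± 0.16, and the intestinal and renal peptide carrier Slc15a1 by 0.85 ± 0.20. Slc15a2, the peptide carrier of astrocytes and choroid plexus, fell by 2.06 ± 0.28, and Slc15a3, a lysosomal carrier of immune cells, by 1.65 ± 0.35. In family 66, Slc66a3 rose by 1.40 ± 0.27 and Slc66a2 fell by 0.86 ± 0.20. Slc66a1, which exports cationic amino acids, was not called on array A (-0.61 ± 0.31) but was called lower on array B (-0.83 ± 0.13).

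**Figure D3:**
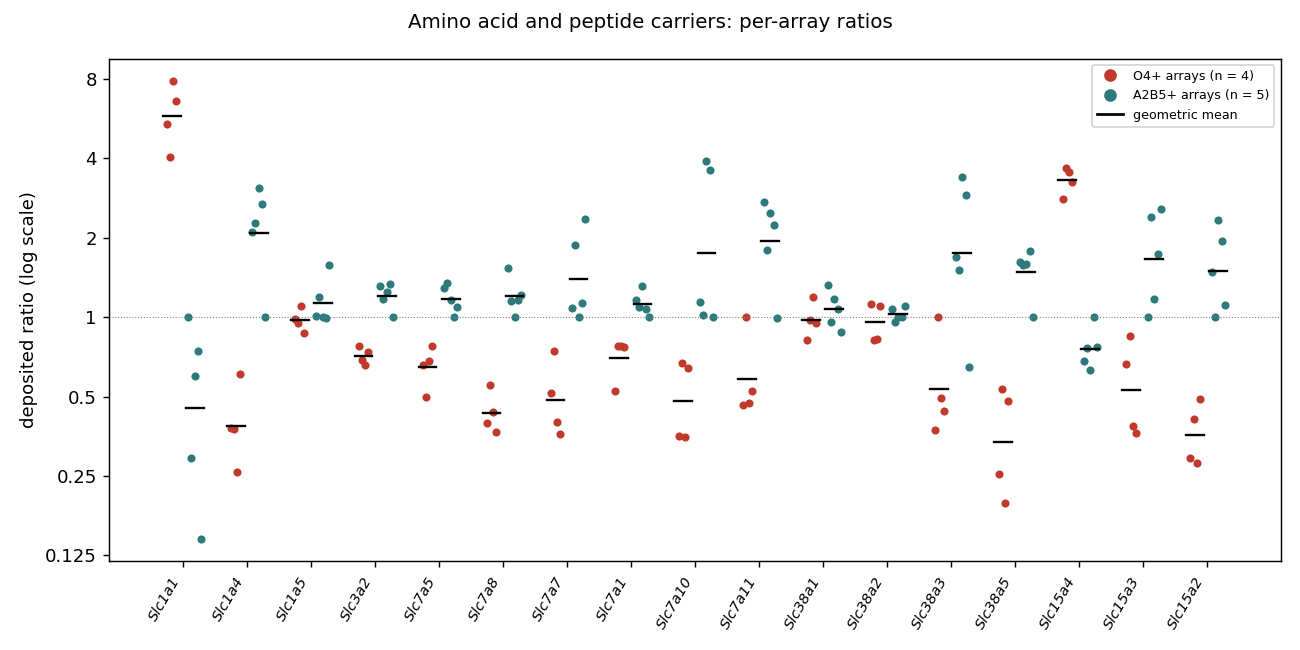
Deposited ratio of each array (log scale) for 17 amino acid and peptide carriers, with O4+ arrays left of A2B5+ arrays and bars at geometric means. Slc1a1 and Slc15a4 lie above in O4+ cells, Slc1a5, Slc38a1 and Slc38a2 lie at similar ratios in both, and the other 12 lie lower in O4+ cells, with overlap for Slc7a11 and Slc38a3.

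Promoter sequence is shown for 3 neutral or cationic amino acid carriers, 2 that fell and 1 that was not called, because they share the letters of an element through which the stress factor ATF4 and its C/EBP partners are known to switch on amino acid carriers in mouse and human cells. The motif searched was TGATGNAA on both strands, in the 250 bases before the start point given with each promoter (RefSeq, GRCr8, on the gene's strand). It was found in 3 of 31 amino acid and peptide carriers with a promoter in the table, or 9.68%, and in 3.40% of all 33469 promoters. Among all members it lay in 2 of 58 promoters of genes called higher, 3 of 41 called lower and 2 of 82 not called. The 3 sequences follow with the motif in capitals, for Slc1a4 at chr14:98761563-98761812 (- strand), for Slc7a1 at chr12:11664238-11664487 (+ strand) and for Slc38a1 at chr7:129681402-129681651 (- strand).
Slc1a4: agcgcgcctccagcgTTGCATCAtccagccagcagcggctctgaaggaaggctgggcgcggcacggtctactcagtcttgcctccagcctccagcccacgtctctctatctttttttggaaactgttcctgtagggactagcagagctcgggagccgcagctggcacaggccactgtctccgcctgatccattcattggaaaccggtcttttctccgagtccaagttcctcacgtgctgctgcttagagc
Slc7a1: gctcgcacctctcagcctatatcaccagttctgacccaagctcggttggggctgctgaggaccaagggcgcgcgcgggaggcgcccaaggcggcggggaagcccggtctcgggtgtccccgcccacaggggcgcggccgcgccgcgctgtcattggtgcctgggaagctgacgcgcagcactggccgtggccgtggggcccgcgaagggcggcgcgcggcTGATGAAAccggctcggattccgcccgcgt
Slc38a1: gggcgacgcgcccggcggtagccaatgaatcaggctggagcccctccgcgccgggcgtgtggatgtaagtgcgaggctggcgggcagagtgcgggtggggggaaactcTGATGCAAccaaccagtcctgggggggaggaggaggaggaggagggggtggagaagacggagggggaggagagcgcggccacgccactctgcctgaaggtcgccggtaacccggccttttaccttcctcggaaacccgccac
The match in Slc1a4 begins 235 bases before its start point, that in Slc38a1 142 bases before it and that in Slc7a1 30 bases before it. A start point need not be the outer end of the gene. The annotated genes reach 98761672 for Slc1a4 and 129681727 for Slc38a1. Part of the Slc1a4 window and all of the Slc38a1 window therefore lie inside the annotated gene. The promoters of Slc3a2, Slc7a5 and Slc7a11 in the table held no match in this window. A match is a description of these letters only.

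The creatine carrier rose alone among carriers of transmitters, amines and osmolytes. Of 7 tested, 1 was higher and 0 were lower, or 14.3% and 0%, beside 28.8% and 17.8% of all genes. Slc6a8 brings creatine, a store of high-energy phosphate, into cells. Slc6a8 had ratios of 8.95, 6.59, 8.30 and 11.1 in O4+ cells, against 1.00, 0.855, 0.857, 0.799 and 0.836 in A2B5+ cells. Every O4+ array lay more than 6-fold above every A2B5+ array, and the difference was 3.31 ± 0.16, or 9.90-fold, with both probe sets called. The glycine carrier Slc6a9 had O4+ ratios of 1.52, 0.663, 1.15 and 1.65, against 0.418, 0.409, 1.16, 1.03 and 0.233 in A2B5+ cells. Its A2B5+ replicates 3 and 4 lay within the O4+ range, and the difference of 1.11 ± 0.48 was not called (adjusted p = 0.0816), although it was with either of those replicates left out (1.39 and 1.34, adjusted p = 0.037 and 0.048). The taurine carrier Slc6a6 differed by -0.45 ± 0.30 and was not called. The serotonin carrier Slc6a4 had ratios of 0.703, 1.18, 0.479 and 0.438 in O4+ cells, against 1.00, 4.51, 0.878, 1.01 and 5.29 in A2B5+ cells. Only A2B5+ replicates 2 and 5 stood out, and the difference of -1.51 ± 0.61 was not called.

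Carriers of lactate and related acids were lower or not called, apart from 2 renal carriers. Of 12 tested, 5 were lower and 2 higher, or 41.7% and 16.7%, beside 17.8% and 28.8% of all genes. Slc16a1 is the lactate and ketone body carrier that oligodendrocytes are known to use to supply axons, and it is also abundant in brain endothelium. Slc16a1 had ratios of 0.938, 0.398, 0.487 and 1.05 in O4+ cells, against 1.00, 1.23, 1.20, 1.16 and 0.980 in A2B5+ cells. O4+ replicates 2 and 3 were low, replicate 1 lay just below the A2B5+ range and replicate 4 within it, and the call at -0.75 ± 0.28 was marginal (adjusted p = 0.0495). It was lost when any 1 array was left out other than O4+ replicates 1 or 4 (adjusted p up to 0.13). Slc16a7, a lactate carrier of neurons with high affinity, fell by 1.88 ± 0.44 with overlap, and its highest A2B5+ ratios, 2.75 and 3.37, were again those of replicates 2 and 5.

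Slc16a6, a relative of the lactate carriers that exports ketone bodies from liver in zebrafish, fell. Slc16a6 had ratios of 0.497, 0.442, 0.490 and 0.424 in O4+ cells, against 1.07, 1.40, 1.21, 1.28 and 1.58 in A2B5+ cells. All O4+ arrays lay below all A2B5+ arrays, and the difference was -1.49 ± 0.14, with both probe sets called. The citrate carrier Slc13a5 fell by 1.77 ± 0.44. Slc16a3, the lactate exporter of glycolytic cells, differed by 0.37 ± 0.17 and was not called (adjusted p = 0.0987). The sulphate carrier Slc13a1 and the dicarboxylate carrier Slc13a3 rose by 0.55 ± 0.18 and 0.53 ± 0.15, and both calls were lost on centring (adjusted p = 0.084 and 0.088).

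Carriers of sodium, potassium, chloride and calcium held 8 rises and 7 falls among 30 tested, or 26.7% and 23.3%. Among all genes the shares were 28.8% and 17.8%. Slc24a2 exchanges sodium for calcium and potassium in neurons. Slc24a2 had ratios of 6.81, 11.2, 11.9 and 4.80 in O4+ cells, against 0.607, 0.634, 1.00, 0.704 and 0.674 in A2B5+ cells. The populations did not overlap on array B, and the difference was 3.51 ± 0.27, or 11.4-fold. Its probe set on array A failed the filter, with ratios of 0.824, 1.20, 0.832 and 1.63 in O4+ cells, against 0.550 to 0.771 in A2B5+ cells. All 58 member probe sets that failed the filter on array A had a positive difference.

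Slc12a2 brings sodium, potassium and chloride into cells and sets their volume and chloride. Slc12a2 had ratios of 5.15, 2.55, 4.76 and 4.79 in O4+ cells, against 0.860, 0.848, 1.00, 0.944 and 0.975 in A2B5+ cells. All O4+ arrays were higher, with replicate 2 lowest, and the difference was 2.17 ± 0.20. Potassium-chloride cotransporters of the same family, which carry chloride out, did not move together: Slc12a4 rose by 0.87 ± 0.20, Slc12a7 fell by 1.60 ± 0.22, and the neuronal Slc12a5 was not called (-0.59 ± 0.36). Slc12a9, a relative of unsettled substrate, rose by 0.81 ± 0.20. The bicarbonate carriers fell or were not called, apart from the erythroid exchanger Slc4a1, one of the small rises lost on centring: the chloride-bicarbonate exchanger Slc4a3 fell by 1.74 ± 0.28, Slc4a10 by 0.90 ± 0.20 and Slc4a7 by 0.79 ± 0.23. The sodium-calcium exchanger Slc8a1 fell by 0.70 ± 0.17, and the endosomal sodium-proton exchanger Slc9a9 by 0.89 ± 0.18. The 2 probe sets of Slc9a9 disagreed, at -1.64 ± 0.25, called, and -0.14 ± 0.16, not called. Of the 2 probe sets of Slc4a7, 1 was called (-0.71 ± 0.19) and the other was not (-0.88 ± 0.45).

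Metal carriers held 7 rises and 6 falls among 25 tested, with the deepest fall of all members. These counts are 28.0% and 24.0%, beside 28.8% and 17.8% of all genes. Slc48a1 moves haem out of endosomes and lysosomes. Slc48a1 had ratios of 11.1, 8.44, 6.17 and 11.9 in O4+ cells, against 0.907, 0.924, 0.951, 1.00 and 0.899 in A2B5+ cells. The populations were far apart, and the difference was 3.28 ± 0.19, or 9.74-fold (adjusted p = 1.6e-06). Zinc carriers of family 39 moved both ways, with 3 higher and 3 lower of 11, or 27.3% each. Slc39a3, Slc39a13 and Slc39a7, the last 2 known to release zinc from the secretory pathway, rose by 1.23 ± 0.14, 0.87 ± 0.19 and 0.76 ± 0.14. Slc39a3 was also called on array B (0.73 ± 0.17).

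Slc39a8 takes up zinc and manganese at the cell surface. Slc39a8 had ratios of 0.184, 0.135, 0.124 and 0.316 in O4+ cells, against 1.66, 1.45, 1.38, 1.58 and 1.00 in A2B5+ cells. The A2B5+ arrays lay at least 3-fold above every O4+ array, and the difference was -2.98 ± 0.27 (adjusted p = 2.8e-05), or 7.88-fold lower. Slc39a10 fell by 1.96 ± 0.30 and Slc39a6 by 0.85 ± 0.15. Slc11a2, which carries ferrous iron out of endosomes, rose by 0.70 ± 0.13, with both of its probe sets called. The copper carriers Slc31a1 and Slc31a2 fell by 0.49 ± 0.12 and 0.98 ± 0.25, and the magnesium carrier Slc41a3 by 0.94 ± 0.17. Of 7 zinc exporters of family 30, 2 were called higher, Slc30a2 at 0.59 ± 0.16 and Slc30a9 at 0.55 ± 0.14, and 0 lower. On array B Slc30a2 was not called (0.046 ± 0.075). Slc30a9 and Slc31a1 each had 1 of 2 probe sets called.

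Of 37 tested mitochondrial carriers 13 were higher and 3 lower, or 35.1% and 8.11%, beside 28.8% and 17.8% of all genes. With arrays centred 11 were higher and 3 lower, beside 18.7% and 20.4% of all genes. All 13 rises were among the 29 measured on array A, or 44.8%, beside 33.7% of all genes there, and of the 8 on array B 0 were higher and 1 lower. Slc25a15 and Slc25a44, among the rises, also had tested probe sets on array B and were not called there. Slc25a1 exports citrate, the source of cytosolic acetyl-CoA for fatty acid and cholesterol synthesis. Slc25a1 had ratios of 3.58, 2.55, 2.65 and 3.13 in O4+ cells, against 1.00, 0.695, 0.868, 0.888 and 0.877 in A2B5+ cells. All O4+ arrays were higher, and it led the class with a difference of 1.78 ± 0.15. Slc25a12, the aspartate-glutamate carrier of neurons that feeds aspartate to N-acetylaspartate synthesis, rose by 1.24 ± 0.14, while its liver relative Slc25a13 was not called on either array type (0.38 ± 0.34 on array A). Slc25a29, a carrier of basic amino acids, rose by 1.69 ± 0.18, the dicarboxylate carrier Slc25a10 by 1.10 ± 0.18, and the peroxisomal carrier Slc25a17 by 0.80 ± 0.13.

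Among adenine nucleotide carriers Slc25a4 rose by 0.72 ± 0.19, and Slc25a5 was not called (0.17 ± 0.13). Slc25a23, a calcium-regulated ATP-Mg and phosphate carrier, rose by 1.52 ± 0.35 on array A but was not called on array B (0.22 ± 0.15). The deepest fall of the class was Slc25a18, a glutamate carrier of astrocyte mitochondria. Slc25a18 had ratios of 0.307, 0.408, 0.350 and 0.403 in O4+ cells, against 1.91, 1.00, 1.68, 1.56 and 1.13 in A2B5+ cells. All O4+ arrays lay below all A2B5+ arrays, and the difference was -1.95 ± 0.20. Slc25a30 fell by 0.37 ± 0.13 and Slc25a28, an iron importer, by 0.50 ± 0.19, close to the threshold (adjusted p = 0.045 and 0.0497), and the call of Slc25a28 was lost on centring.

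Of 4 tested carriers of family 35, most of which bring nucleotide sugars into the Golgi, 3 rose, and a nucleoside carrier fell. Slc35a2 brings UDP-galactose, from which galactosylceramide is made, into the Golgi. Slc35a2 had ratios of 2.10, 1.46, 1.89 and 2.36 in O4+ cells, against 1.00, 0.695, 0.714, 0.692 and 0.788 in A2B5+ cells. The populations did not overlap, and the difference was 1.32 ± 0.17. Slc35a4 and Slc35a5 rose by 0.92 ± 0.16 and 0.78 ± 0.17, and Slc35a1, which carries CMP-sialic acid, was not called (0.18 ± 0.13). Slc29a1, the main equilibrative carrier of adenosine, fell. Slc29a1 had ratios of 0.369, 0.567, 0.260 and 0.320 in O4+ cells, against 1.07, 2.94, 1.00, 1.36 and 2.09 in A2B5+ cells. All A2B5+ arrays lay above all O4+ arrays, with replicates 2 and 5 highest, and the difference was -2.09 ± 0.34.

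Choline and fatty acid carriers divided by gene. Slc44a1 takes up choline for phosphatidylcholine. Slc44a1 had ratios of 7.00, 2.76, 7.05 and 7.51 in O4+ cells, against 1.26, 0.837, 0.800, 0.879 and 0.761 in A2B5+ cells. The difference was 2.66 ± 0.30 as the mean of 3 probe sets, without overlap. O4+ replicate 2 was low in 1 probe set, at 0.712 against 7.68 to 9.20 in the other O4+ arrays, and in another at 3.56 against 5.39 to 5.54. The third probe set read 7.90 to 8.54 in all O4+ arrays, against 0.597 to 1.00 in A2B5+ cells. Slc5a7, the choline carrier of cholinergic neurons, rose by 1.00 ± 0.20, and Slc44a2 fell by 0.59 ± 0.12. Of the acyl-CoA synthetase carriers of family 27, Slc27a4 rose by 1.66 ± 0.21 and Slc27a1 and Slc27a5 fell by 1.25 ± 0.22 and 1.11 ± 0.22. The acetyl-CoA carrier Slc33a1 rose by 0.46 ± 0.13 on array A, was not called after centring (adjusted p = 0.063), and had a difference of the opposite sign on array B (-0.32 ± 0.12, adjusted p = 0.075). The thiamine carrier Slc19a2 and the lysosomal carrier Slc46a3 fell by 1.05 ± 0.16 and 1.40 ± 0.21, and Slc23a3 rose by 0.75 ± 0.21.

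Organic ion carriers contained several strong rises among genes of little known substrate. Of 21 tested in the remaining class, 7 were higher and 4 lower, or 33.3% and 19.0%, beside 28.8% and 17.8% of all genes. Slc22a15 had ratios of 3.96, 3.55, 3.25 and 3.38 in O4+ cells, against at most 1.00 in A2B5+ cells. Every O4+ array was at least 3-fold above every A2B5+ array, with a difference of 1.94 ± 0.12 (adjusted p = 2.1e-06). Slc22a23 rose by 2.66 ± 0.31, Slc22a17, a receptor for lipocalin-2, by 1.16 ± 0.23, and Slc10a4, known from vesicles of monoamine and cholinergic neurons, by 2.22 ± 0.38. Slc22a8, an organic anion carrier of brain capillaries and choroid plexus, fell by 2.00 ± 0.31 on array A and fell by 2.56 ± 0.40 on array B. The lysosomal sialic acid carrier Slc17a5 and Slc10a3 fell by 0.88 ± 0.26 and 1.28 ± 0.20.

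Carriers known from particular brain cells were also read as lists, written with earlier results of these data known. The counts below were not tested against other genes. Of all genes 28.8% were higher and 17.8% lower, or 18.7% and 20.4% with arrays centred. Of 9 tested carriers known from oligodendrocytes 7 were higher and 1, Slc16a1, was lower, with a median difference of 2.66, and 6 and 1 with arrays centred. Of 7 known from astrocytes 5 were lower and 1, Slc14a1, higher (median -1.73), or 5 and 0 with arrays centred. Of 9 known from microglia and macrophages 6 were lower and 0 higher (median -1.40), and of 12 known from brain endothelium or pericytes 7 were lower and 1 higher (median -0.71), with the same counts when centred. Of 13 known from neurons 5 were higher and 1 lower (median 0.24), or 3 and 1 when centred, while of 10 neuron markers 2 were higher and 6 lower (median -0.88). The lists share members: Slc24a2 counts among the rises of the oligodendrocyte and the neuron lists, and Slc16a1 among the falls of the oligodendrocyte and the endothelial lists. Slc1a1, described above as a carrier of neurons and oligodendrocytes, counts in the neuron list only. Slc1a1 and Slc24a2 were among the 3 neuron-list rises kept with arrays centred.

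The astrocyte, microglia and endothelial lists were lower in O4+ cells, as were the general markers of those cells. On array A the mean log2 ratio of 12 microglia markers lay between -1.49 and 0.098 in O4+ arrays and between -0.025 and 0.88 in A2B5+ arrays, and that of 11 astrocyte and radial glia markers between -1.01 and -0.30 in O4+ arrays and between -0.0076 and 1.04 in A2B5+ arrays. Those of 10 endothelial and mural markers lay between -1.71 and -0.64 in O4+ arrays and between 0.096 and 0.56 in A2B5+ arrays. The part of other cells in the carriers' differences was not tested.

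A2B5+ replicates differed among themselves in a pattern that some carriers shared with other genes of array A. Of 173 members measured on array A, 23 had 2 A2B5+ arrays at least 1.3-fold above the other 3. In 11 of these the pair was replicates 2 and 5, in 11 it was replicates 3 and 4, and in 1 it was replicates 1 and 2. Of all 9045 genes of array A, 958 had such a gap. Replicates 2 and 5 were the highest pair in 31.9% of those 958 and replicates 3 and 4 in 36.5%. Of all genes of array A these were 3.38% and 3.87%, and of members 6.36% for each pair. Replicates 2 and 5 were highest for Slc2a5, Slc3a1, Slc6a4, Slc7a7, Slc15a3, Slc16a7, Slc22a4, Slc22a18, Slc29a1, Slc45a3 and Slc66a1, of which 3 are in the microglia and macrophage list and 1, Slc45a3, in the oligodendrocyte list. Replicates 3 and 4 were highest for Slc6a9, Slc6a13, Slc7a10, Slc13a4, Slc15a2, Slc20a2, Slc22a6, Slc27a1, Slc29a2, Slc38a3 and Slc49a4, of which 4 are in the astrocyte list and 3, Slc6a13, Slc13a4 and Slc22a6, in the list of endothelium and pericytes. Other list members followed neither pair: Slc7a8 was highest in A2B5+ replicate 1 (1.54), as was Slc25a18 (1.91).

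Over all their members on array A, the 7 microglia and macrophage carriers averaged log2 ratios of -0.087, 0.49, -0.098, 0.16 and 0.78 in A2B5+ replicates 1 to 5, and the 6 astrocyte carriers averaged 0.17, -0.15, 0.95, 0.84 and -0.40. The 12 carriers listed for endothelium or pericytes averaged 0.12, 0.21, 0.54, 0.61 and -0.0096, with replicates 3 and 4 highest, unlike the endothelial and mural markers below. Microglia markers averaged -0.025, 0.88, 0.19, 0.53 and 0.81 in the same order, so replicates 2 and 5 were highest. Astrocyte and radial glia markers averaged 0.56, 0.19, 1.04, 0.81 and -0.0076, and neuron markers 0.31, 0.40, 1.36, 1.20 and -0.11, with replicates 3 and 4 highest in both. Endothelial and mural markers averaged 0.31, 0.56, 0.096, 0.30 and 0.16, and choroid plexus and ependymal markers 0.55, 0.22, 0.16, -0.057 and 0.43, and in neither were replicates 3 and 4 the highest pair. Progenitor markers also varied, averaging 0.96, 0.00025, 0.72, 0.87 and -0.45. Replicate 5 thus lay within the range of the O4+ arrays for these markers (-0.49 to -0.22). Proliferation markers averaged 0.33, 0.68, 0.63, 0.29 and 0.45. The pairs were picked after seeing the values and carry no test, and the part of other cells in them was not tested.

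**Figure D4:**
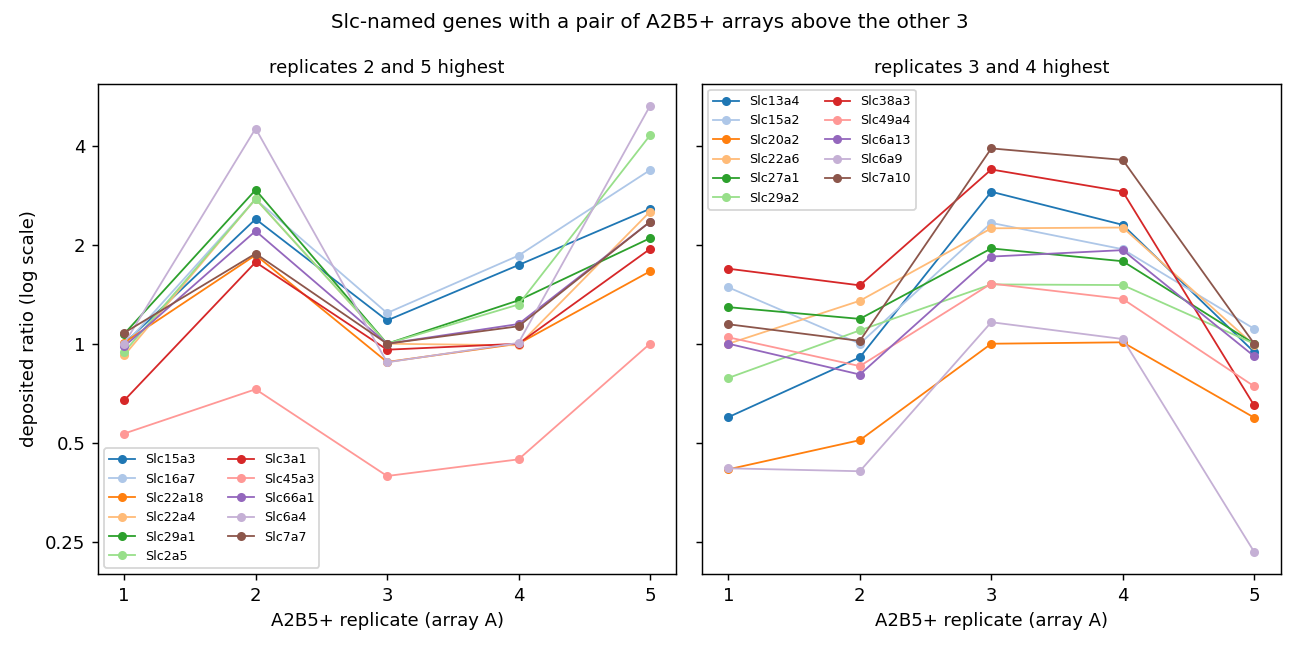
Deposited ratio (log scale) in the 5 A2B5+ arrays of array A for the 22 members in which replicates 2 and 5 (left) or 3 and 4 (right) lie at least 1.3-fold above the other 3, 1 line for each gene. Slc6a4 reaches 5.29 in replicate 5 on the left, and Slc7a10 reaches 3.93 in replicate 3 on the right.

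Carriers present on both array types gave a check on single probe sets. Of 15 tested on both, 9 had the same sign of difference. Slc22a8 was called lower and Slc39a3 higher on both. Called higher on array A and not called on array B were Slc25a15, Slc25a23, Slc25a44, Slc30a2 and Slc33a1. Their array B differences included -0.15 ± 0.31 for Slc25a15 and 0.42 ± 0.21 for Slc25a44. On array B only, Slc25a36 (-1.02 ± 0.26) and Slc66a1 were called lower and Slc41a1 (0.48 ± 0.12) higher. The urea carrier Slc14a1 was the 1 member called in opposite directions, with 0.38 ± 0.13 on array A, where its ratios followed the median pattern of low-ratio probe sets, and -1.88 ± 0.48 on array B. The amino acid carrier Slc6a17 had 0.27 ± 0.13 on array A, not called, and -0.68 ± 0.17 on array B, called in a fit of that array type alone.

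The 48 members without a tested probe set included Slc1a6, Slc6a2, Slc6a5, Slc6a11, Slc12a1, Slc18a3 and Slc30a1. Without the filter 32 of them were called higher and 0 lower, with differences of 0.24 to 0.67. The median pattern of all probe sets with medians under 1, carriers or not, was itself 0.33 higher in O4+ cells on array A. The share of all genes called without the filter is not given here. At the edge of the filter, the probe sets with the highest fourth-largest ratio among those left out were those of Slc8a3 (0.990) and Slc30a4 on array B (0.994), and the lowest among those kept were Slc39a14 on array B (1.00) and Slc25a41 (1.001). Slc8a3, a sodium-calcium exchanger, had ratios of 0.990, 1.24, 1.55 and 1.19 in O4+ cells, against 0.672 to 0.915 in A2B5+ cells. These did not overlap. All A2B5+ ratios were under 1, as they were for Slc36a1, a tested member with a difference of 0.46 ± 0.16 whose call was lost on centring. Slc36a1 passed the filter only through its 4 O4+ ratios, 1.06 to 1.55. It thus entered the test through the population in which it was higher, and its rise carries no weight of its own.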

How the data were processed

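RNA of sorted O4+ cells (4 samples on each array type) and A2B5+ cells (5 on each) was measured on arrays A and B. The deposited values are linear ratios for each probe set, and the submitters' processing notes name GCRMA without a version. The step by which the authors turned GCRMA output into ratios is not stated there. The number of arrays limits the precision.

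Samples were grouped by title. Probe sets with 1 annotated symbol and a ratio of at least 1 on 4 or more of 9 arrays were kept, log2(ratio) was averaged over a gene's probe sets, taking array A before array B, and no further normalization was applied. Differences, O4+ minus A2B5+, were tested in limma 3.58.1 (R 4.3.3) with lmFit and eBayes over all 11982 genes, with Benjamini-Hochberg adjustment, a threshold of 0.05 and standard errors from the fit (± in the text). Values for single probe sets and for each array type come from fits over all probe sets or genes of that kind. The procedure was tested on simulated data.

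The members, substrate classes and cell type lists were chosen with earlier results of these data known. Named by rule were a list of carriers and, in each class, up to 4 of the largest rises and up to 4 of the largest falls among called members whose populations did not overlap, and other members named for their probe sets, family or array pattern were chosen after their values were seen. Alternatives covered centring, quantile normalization, the filter, the choice of probe set and array type, array weights, a replicate block and leaving out each replicate. Promoters are from RefSeq (GRCr8) and were matched for 181 of 215 tested members.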

Additional observations from a re-analysis of the deposited data

Results flagged for a closer look

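Among the named members, 154 groups of 4 or 5 arrays were checked for a single array far from the others by Dixon's criterion, and 12 stood out, 7 in O4+ cells and 5 in A2B5+ cells. Chance flags about 1 in 20 groups.

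Of the 7 in O4+ cells, 4 were replicate 2 on array A. Its ratio there was 2.55 for Slc12a2 against 4.76 to 5.15 in the other O4+ arrays, 2.96 for Slc22a23 against 4.63 to 5.07, and 2.76 for Slc44a1 against 7.00 to 7.51. It was higher than the other O4+ arrays for Slc16a3 at 1.42 against 1.00 to 1.02. This array was often extreme beyond carriers. Of all 9045 genes of array A it was the highest O4+ array in 44.2% and the lowest in 30%. Of members from array A the shares were 43.4% and 27.7%. On array B the sample numbered 2 was higher than the other O4+ arrays for Slc46a3 at 0.694 against 0.502 to 0.506 and for Slc7a11 at 1.00 against 0.466 to 0.526. The same number need not mean the same sample on both types: over 100 shared probe sets O4+ replicate 2 of array A correlated at -0.064 with O4+ replicate 2 of array B and at 0.947 with replicate 4, while each A2B5+ array correlated best with its own number. The remaining one was Slc22a17 on array A, at 2.08 in replicate 3 against 1.53 to 1.59.

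In A2B5+ cells replicate 5 stood out for Slc31a2 at 1.87 against 1.00 to 1.18, for Slc38a5 at 1.00 against 1.58 to 1.79 and for Slc39a10 at 1.00 against 1.70 to 2.09. Of all genes of array A this replicate was the highest A2B5+ array in 36% and the lowest in 19.9%. Of members there the shares were 37.6% and 20.2%. Replicate 1 stood out for Slc41a3 at 1.00 against 1.33 to 1.49 and for Slc44a1 at 1.26 against 0.761 to 0.879.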

How the results depend on the processing

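The counts of 62 higher and 46 lower members moved most at the small rises: 40 were higher with quantile normalization and 101 with no filter on low ratios, where 263 members were tested. Leaving out 1 replicate number of a population at a time, on both array types together, gave 50 to 66 higher and 40 to 45 lower. For O4+ cells the same number need not be the same sample on both types. The array weights were also estimated by number over both types. The other alternatives gave 46 to 76 higher, and all alternatives other than leaving out a replicate gave 41 to 51 lower. Slc33a1 turned to -0.32 with array B taken before array A (adjusted p = 0.068), where other probe sets represent it. Same-numbered O4+ and A2B5+ samples did not pair: their deviations correlated at 0.020 to 0.31 on array A and at -0.20 to 0.24 on array B, and a sample matched its own number best in 1 of 4 cases on each. The replicate block gave 60 higher and 44 lower, of which 58 and 41 were also called without it. Of the 77 named differences, 73 to 77 kept their direction and their side of the threshold under each alternative, 0 to 4 lost the call and 0 to 2 gained one. Most of the 77 were picked in these data as the largest called differences of their class without overlap. Their stability therefore does not extend to the other members. Signal over background is not in the deposited ratios. The shift of low-ratio probe sets on array A, 0.31 at the median, limits what can be said of small rises there. The causes were not tested.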
